A study of Mus musculus with 4 samples.

Results

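The share of a gene's RNA reads that lies in its 5'UTR, the untranslated leader ahead of the coding sequence, was compared between mouse heart and tibialis anterior (TA), a fast hindlimb muscle. Both tissues came from 10-week-old male C57BL/6J mice with no treatment or transgene named, and each had 1 library of rRNA-depleted total RNA and 1 library of ribosome-protected fragments (RPF, footprints). The 4 libraries were therefore 1 per group, so replicate error is unknown for every difference below, and no test across samples could be run. Members were the genes listed in both tissues' tables with a 5'UTR of at least 30 nt, at least 5 RPM of coding RNA in both tissues and at least 1 RPM of 5'UTR RNA in at least 1. RPM is reads scaled to a fixed total of coding reads in each library. Of 9906 gene symbols listed in both tables, 742 had a shorter 5'UTR, 2326 missed the coding minimum and 3694 missed the 5'UTR minimum, which left 3144 members. The 5'UTR minimum was met in both tissues by 2064 of them, in heart alone by 891 and in TA alone by 189. A member that met it in 1 tissue alone was chosen through the tissue where its 5'UTR was high.

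The value of a member is the log2 of (5'UTR RPM + 0.1) over (coding RPM + 0.1) in heart, minus the same in TA, so that positive values mean a larger 5'UTR share in heart. A gene is called higher or lower when this value is at least 2-fold. Intervals are 95% intervals of the same ratio from the recovered whole reads and cover counting error only. The added 0.1 RPM pulls a thinly read 5'UTR towards equality between the tissues. The value then moves towards minus the log2 coding difference, heart over TA. The ratio from reads, its interval or the reads are therefore printed for many genes with few reads, though not for all.

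Many mammalian genes have more than 1 promoter, and each promoter adds its own first exon to a shared body. Where the alternative first exon is noncoding, the protein stays the same and the leader changes. Where it carries a start codon, the protein's front end changes too. Muscle genes such as those of aldolase A, the tropomyosins and the fast myosin light chains are textbook cases. The tables used 1 transcript model for nearly all genes, with 5 symbols on several rows in heart and 4 in TA. RNA that begins at another first exon and has no exon over the listed 5'UTR adds reads to the coding sequence alone. RNA from another first exon that keeps part of that 5'UTR still adds reads to it. No start site was measured here, and a difference in share does not say where a transcript began.

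To show the starts at which genes described below can begin, 30 bases (positions -35 to -6, 5′ to 3′) ahead of start sites in the RefSeq promoter table (GRCm38.p6) are given. The genes were picked because they have large differences, and capitals mark TATAAA where it occurs.
Aldoa, start of the listed model, chr7:126799184-126799213, minus strand: tttaaatgtccggggccccgcctcccgtcc
Aldoa, start 1269 nt upstream of it, chr7:126800453-126800482, minus strand: ctctcctttggaaaaaaaaaaaaagtacaa
Rtn4, start of the listed model, chr11:29692863-29692892, plus strand: ctattggctctctgtcccccgcgccagcca
Rtn4, start 25665 nt downstream of it, chr11:29718528-29718557, plus strand: gagtcttttcttttggtagctgcctccttc
Tpm3, start 3 nt from that of the listed model, chr3:90072616-90072645, plus strand: cacagataaaggttcaaacctggggaactt
Tpm3, start 6873 nt downstream of the listed model's, chr3:90079486-90079515, plus strand: cggccctgagtggtcgcctagggttactgg
Pde4d, start of the listed model, chr13:108654142-108654171, plus strand: cctagcaacaaatcacacacacgtttgctg
Asb5, start of the listed model, chr8:54550296-54550325, plus strand: ggacagTATAAAtaatttgagccttagaca
Tsc22d1, start of the listed model, chr14:76415786-76415815, plus strand: cccacgtgaagcggaaTATAAAggggggtg

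The paired starts differed in base composition. In the 300 bases around it, the start of the Aldoa model held 23 CpG dinucleotides and the upstream start held 0. The Rtn4 model start held 15 and the far downstream one held 1. For Tpm3 the order was the other way, with 3 CpG at the model start and 15 at the downstream start. The contrast depends on the start chosen. Starts not shown, 76 nt upstream for Aldoa and 876 nt downstream for Rtn4, held 24 and 35.

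For most members the 5'UTR took nearly the same share of RNA in both tissues. The median value was -0.01, and the middle of the distribution, from the 25th to the 75th percentile, ran from -0.31 to 0.31. Of the 3144 members, 2896 (92.11%) were under 2-fold. The share was at least 2-fold higher in heart for 129 members (4.1%) and at least 2-fold lower for 119 (3.78%). The interval excluded equal shares for 82 of the 129 and 74 of the 119, and lay wholly beyond 2-fold for 14 and 11. With 1 RPM added in place of 0.1 the counts became 47 higher and 194 lower, so the balance of the calls rests on the constant added. On the higher side Tgfbrap1 stood just inside the 2-fold line at 1.0009 and Olfml2b just outside at 0.9981. On the lower side these were Rai2 at -1.0046 and Atad1 at -0.9996.

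**Figure D1:**
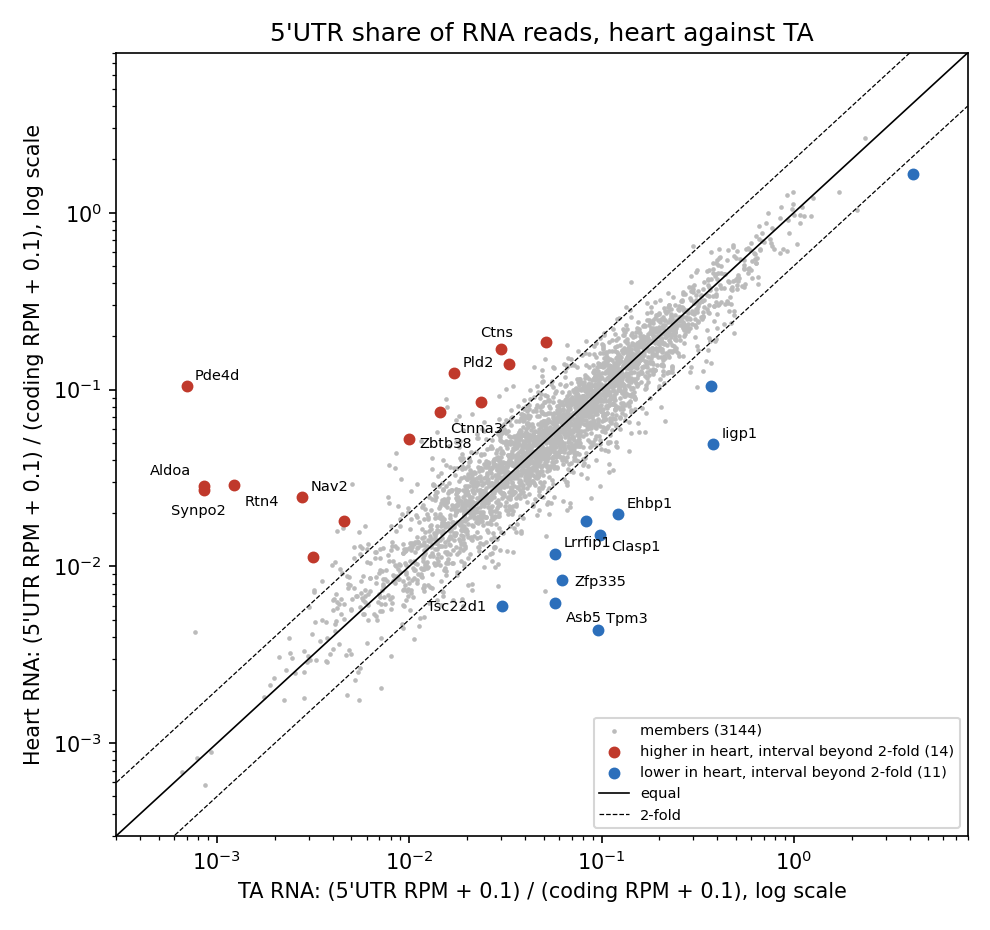
Each point is a member, with its 5'UTR to coding ratio in TA RNA on the x axis and in heart RNA on the y axis (both log scales, 0.1 RPM added). Most of the 3144 members lie between the dashed 2-fold lines, and the 25 coloured genes (14 higher, 11 lower in heart) are those whose interval lies wholly beyond 2-fold.

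The spread narrowed with reads. Among the 437 members with under 25 5'UTR reads in both RNA libraries together, 21.3% were past 2-fold. That share was 9.39% of 1022 members at 25 to 50 reads, 4.42% of 769 at 50 to 100, 2.53% of 632 at 100 to 300 and 3.17% of 284 at 300 or more. The 2-fold calls therefore came mostly from thinly read leaders, and the genes below are weighed by their reads. The direction of the calls also changed with reads. Under 25 reads, 66 members were higher and 27 lower, with a median of 0.29. In each better-read group lower calls were the more numerous, with 39 higher and 57 lower at 25 to 50 reads. The minimum of 1 RPM was 9.34 reads in heart and 16.1 in TA. Its part in this balance was not tested.

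**Figure D2:**
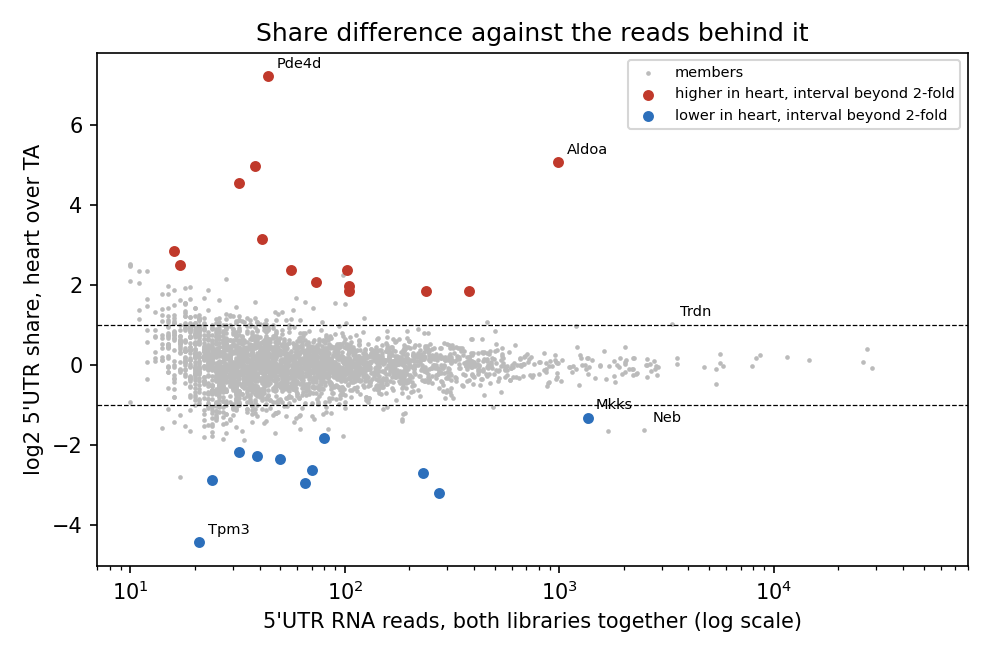
Value of each member (y axis, log2 heart over TA) against its 5'UTR RNA reads in both libraries together (x axis, log scale), with dashed lines at 2-fold. Grey points spread widely below 50 reads, and Aldoa and Mkks stand past the lines with 989 and 1356 reads, while Neb has 1 heart read among its 2480.

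Per nucleotide the leader was covered less than the coding sequence. The median 5'UTR density relative to coding (reads per nt over reads per nt) was 0.357 in heart and 0.343 in TA. In the 129 members called higher the medians were 0.375 in heart and 0.116 in TA. In the 119 called lower they were 0.144 and 0.392. In both classes the tissue with the larger share was thus near the level of all members and the other tissue was under it. These medians describe classes chosen on the same values.

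Aldoa, which encodes the muscle-type aldolase of glycolysis, had the best-read difference among members past 4-fold. Its 5'UTR had 80.7 RPM in heart and 14.6 RPM in TA, while its coding sequence had 2823 RPM in heart and 17214 RPM in TA. The leader was thus higher in heart where the coding RNA was far lower. It took 2.78% of 5'UTR and coding reads in heart (2.59 to 2.98% by Wilson's method), and its share in TA was 0.0847% (0.0746 to 0.0963%). The ratio from reads was 33.7-fold (29.1 to 39.2, 754 and 235 5'UTR reads) and the value 5.07. Density relative to coding was 0.245 in heart and 0.00726 in TA, so in TA the listed leader was nearly bare. Footprints on the leader gave 5.42 (4.32 RPM in heart, 0.56 in TA), and the 3'UTR share differed by only -0.03. GENCODE has 1 coding transcript of Aldoa with no exon over the 5'UTR of the matched transcript. That 5'UTR is 109 nt long, against 146 nt as listed.

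Pfkm, the muscle phosphofructokinase and a control point of glycolysis, was the other glycolytic gene called higher. Its 5'UTR had 16.4 RPM in heart and 14.2 RPM in TA against 1457 and 4525 RPM of coding RNA. The value was 1.84 (1.54 to 2.15) and the footprint value 3.76, with 7.26 RPM of 5'UTR footprints in heart and 1.89 in TA. Of 27 glycolysis and glycogen members, these 2 were higher and none was lower, with a list median of 0.01. Over all members 4.1% were higher and 3.78% lower, with a median of -0.01.

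Pde4d, a cAMP phosphodiesterase whose gene is known for many promoters, had the highest value of all, 7.22. Its leader had 43 reads (4.60 RPM) in heart and 1 read (0.06 RPM) in TA, while its coding RNA was 45.1 RPM in heart and 230 RPM in TA. The ratio from reads was 378-fold with an interval of 63.8 to 15260. Heart RNA covered the leader slightly more densely than the coding sequence (1.27) and TA RNA at 0.00325. The 3'UTR share was equal (-0.11), and 8 annotated coding transcripts start outside the leader. Among 15 members for adrenergic and cAMP signalling, Pde4d, Prkaca (1.10) and Prkar2a (1.13), the catalytic and a regulatory subunit of protein kinase A, were higher and none was lower, beside 4.1% and 3.78% over all members.

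Synpo2, the Z-disc actin-binding protein myopodin, had a value of 4.98 from 35 reads in heart and 3 in TA, and a footprint value of 5.69. Its coding RNA was 143 RPM in heart and 339 RPM in TA. The ratio from reads was 47.8-fold (15.0 to 243). Its 3'UTR share differed the same way (4.24), so both ends of the listed model were sparse in TA relative to the coding part. Among the 14 members whose interval lay beyond 2-fold upward, the 3'UTR share was under 2-fold for 12, the others being Synpo2 and Rtn4.

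Rtn4, the reticulon whose short form Nogo-C is known to have its own promoter and to be made in skeletal muscle, had 24 leader reads in heart and 8 in TA. Its coding RNA was 92.2 RPM in heart and 487 RPM in TA, and the value was 4.55 (27.3-fold from reads, 11.8 to 70.5). Its footprint value was 3.63. The 3'UTR share went the other way (-1.67), which means more 3'UTR reads per coding read in TA. The far downstream start shown above with 1 CpG lies past this leader.

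Nav2, a cytoskeletal neuron navigator, had 41 leader reads in heart (4.39 RPM) and 0 in TA, against 182 and 35.8 RPM of coding RNA. Set against a floor of 3 reads in TA, its share was at least 4.65-fold higher in heart, and the counting interval of the ratio from reads began lower, at 3.60-fold, with no upper limit. Its footprint value was 1.12. GENCODE gives the matched transcript a 5'UTR of 97 nt, against 752 nt as listed. The nearest coding transcript with no exon over those 97 nt starts 287747 nt upstream of the matched transcript's start.

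**Figure D3:**
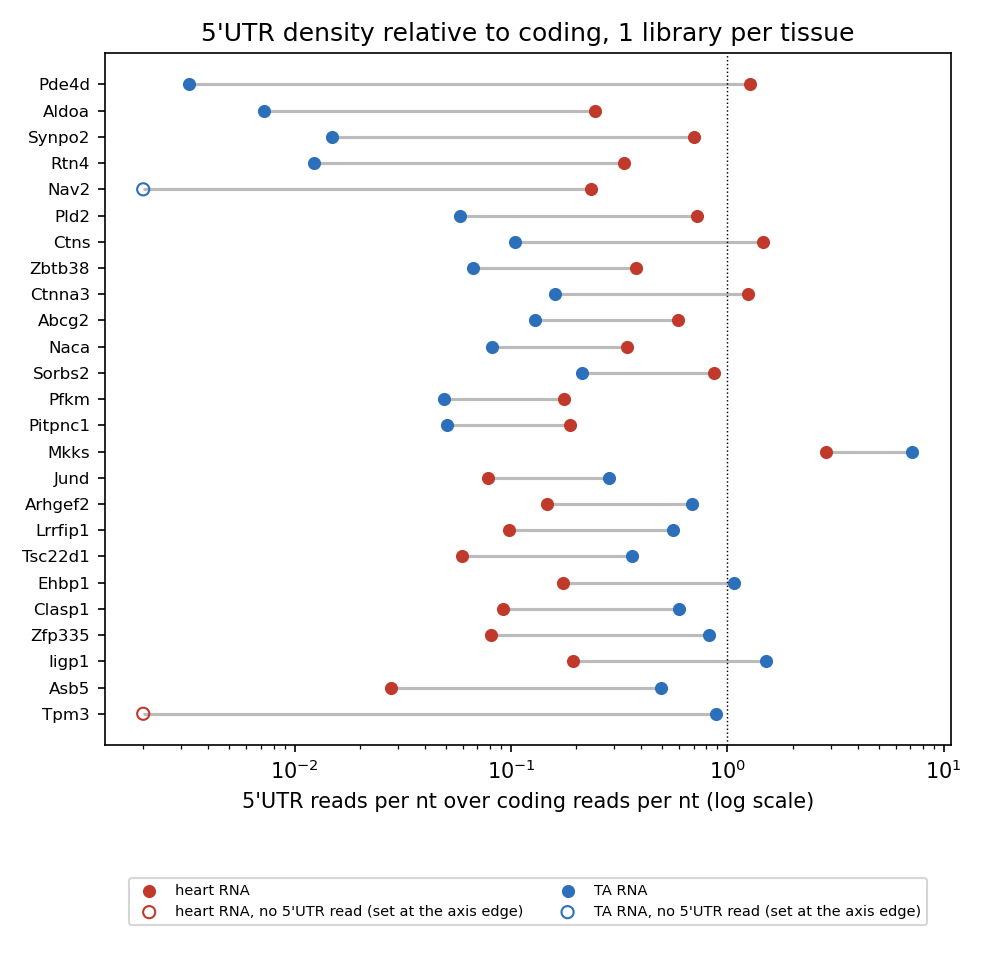
5'UTR reads per nt over coding reads per nt (x axis, log scale) in heart RNA (red) and TA RNA (blue), 1 library each, for the 25 members whose interval lies beyond 2-fold. Open points at the left edge mark no 5'UTR read (Nav2 in TA, Tpm3 in heart), and the Aldoa leader stands at 0.245 in heart and 0.00726 in TA.

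Ctnna3, the alpha-T-catenin of the intercalated disc, had 10.6 RPM of 5'UTR in heart and 0.19 RPM (3 reads) in TA, and its ratio from reads was 7.99-fold (2.63 to 39.6). It was the only call among 26 members of the dystrophin, costamere and membrane list, near the 4.1% called higher over all members. Sorbs2, a Z-disc and adhesion adaptor, had 24.3 RPM and 0.68 RPM, a value of 1.85 (1.15 to 3.06) and a footprint value of 0.54. That footprint value was near the median of 0.48 over all members with footprints for the comparison. The matched GENCODE transcript of Sorbs2 has a 5'UTR of 219 nt, against 349 nt as listed. Naca was listed on a 6558 nt coding model, far longer than the ribosome-associated chaperone subunit it is best known for. It had 8.99 RPM and 1.24 RPM, a value of 1.98 (1.36 to 2.86) and a footprint value of 0.89. Its matched GENCODE transcript has a 5'UTR of 51 nt, against 340 nt as listed.

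The other members with intervals beyond 2-fold upward were Zbtb38, a methyl-CpG-binding zinc finger protein (2.38), the efflux transporter Abcg2 (2.07), the phosphatidylinositol transfer protein Pitpnc1 (1.84), phospholipase Pld2 (2.85) and the lysosomal cystine transporter Ctns (2.49). Pld2 and Ctns rested on 2 reads and 1 read in TA, with ratios of 12.0-fold (2.66 to 110) and 13.6-fold (2.01 to 576), and were named after their values were seen. The footprint value of Ctns was -0.18, under 2-fold.

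Tpm3, which encodes the slow-muscle alpha-tropomyosin and, from an internal promoter, cytoskeletal tropomyosins, had the lowest value, -4.45. Its leader had 0 reads in heart and 21 reads (1.30 RPM) in TA, against 22.7 RPM and 14.5 RPM of coding RNA. Against a floor of 3 reads in heart, the share was at least 6.34-fold higher in TA, and the counting interval of the ratio from reads began lower, at 4.63-fold, with no upper limit. In TA the leader was covered at 0.883 of the coding density. The 3'UTR share was 0.99 the other way, just under 2-fold. In GENCODE 3 coding transcripts have no exon over the matched transcript's 5'UTR.

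Asb5, a muscle-expressed ankyrin repeat and SOCS box protein, had 1 leader read in heart and 275 reads (17.1 RPM) in TA. Its coding RNA was 33.9 RPM in heart and 299 RPM in TA. The ratio from reads was 18.1-fold in favour of TA (3.19 to 719). Footprints on the leader were 0.00 RPM in heart and 38.7 RPM in TA, a footprint value of -4.26. Its model start has TATAAA between positions -40 and -16, which holds for 1.99% of all promoters in the table.

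Clasp1 and Ehbp1 were read well in both tissues. Clasp1, a microtubule plus-end protein, had 10.9 RPM of leader in heart and 8.01 RPM in TA, while its coding RNA was 728 and 82.3 RPM. Its value was -2.70 (-3.10 to -2.30) and its footprint value -2.85. Ehbp1, an endocytic adaptor, had 3.0 and 2.61 RPM of leader against 157 and 22.1 RPM of coding RNA. Its value was -2.63 (-3.40 to -1.88) and its footprint value -2.12. In both genes the leader was near equal in the tissues while the coding RNA was several-fold higher in heart.

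Mef2c, the myocyte enhancer factor that drives muscle genes in heart and skeletal muscle, had the most leader reads of the called transcription factors. Its leader had 5.99 RPM in heart and 79.7 RPM in TA, against 43.2 RPM and 215 RPM of coding RNA. It took 12.2% of 5'UTR and coding reads in heart (9.50 to 15.5%) and 27% in TA (25.8 to 28.3%). The value was -1.40 (-1.86 to -1.0) and the footprint value -1.72. Among 24 transcription factor members, Mef2c was lower and Nrf1 (1.11) and Foxo3 (1.09) were higher, the interval of Foxo3 including equality. Over all members 3.78% were lower and 4.1% higher.

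Tsc22d1, a leucine zipper protein with several promoters in the RefSeq table, had 4 leader reads in heart and 46 in TA and a value of -2.36. Its 3'UTR share moved the opposite way by 2.38, so heart had relatively fewer reads at the front of the listed model and more at the end. Lrrfip1, a double-stranded nucleic acid binding protein, had 4 leader reads in heart and 35 in TA. Its value was -2.28 and its footprint value -1.31. Iigp1 (an interferon-induced GTPase, -2.95), Zfp335 (a zinc finger protein, -2.88) and Arhgef2 (a guanine nucleotide exchange factor, -2.19) also had intervals beyond 2-fold. So did Jund (an AP-1 subunit, -1.83) and Mkks (-1.32). Iigp1, Zfp335, Arhgef2, Jund and Mkks were named after their values were seen. Zfp335 rested on 2 leader reads in heart and 22 in TA, and Arhgef2 on 9 and 23. Mkks, a chaperonin-like protein, was unusual in that its 996 nt leader was denser than its coding sequence in both tissues, 2.84 in heart and 7.16 in TA. In GENCODE, exons of other genes overlap the 5'UTR of the matched Mkks transcript, and also those matched to Pld2, Arhgef2 and Zfp335. The Jund leader was listed at 1319 nt and that of Tsc22d1 at 262 nt. Their matched transcripts have 5'UTRs of 109 nt and 496 nt.

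**Figure D4:**
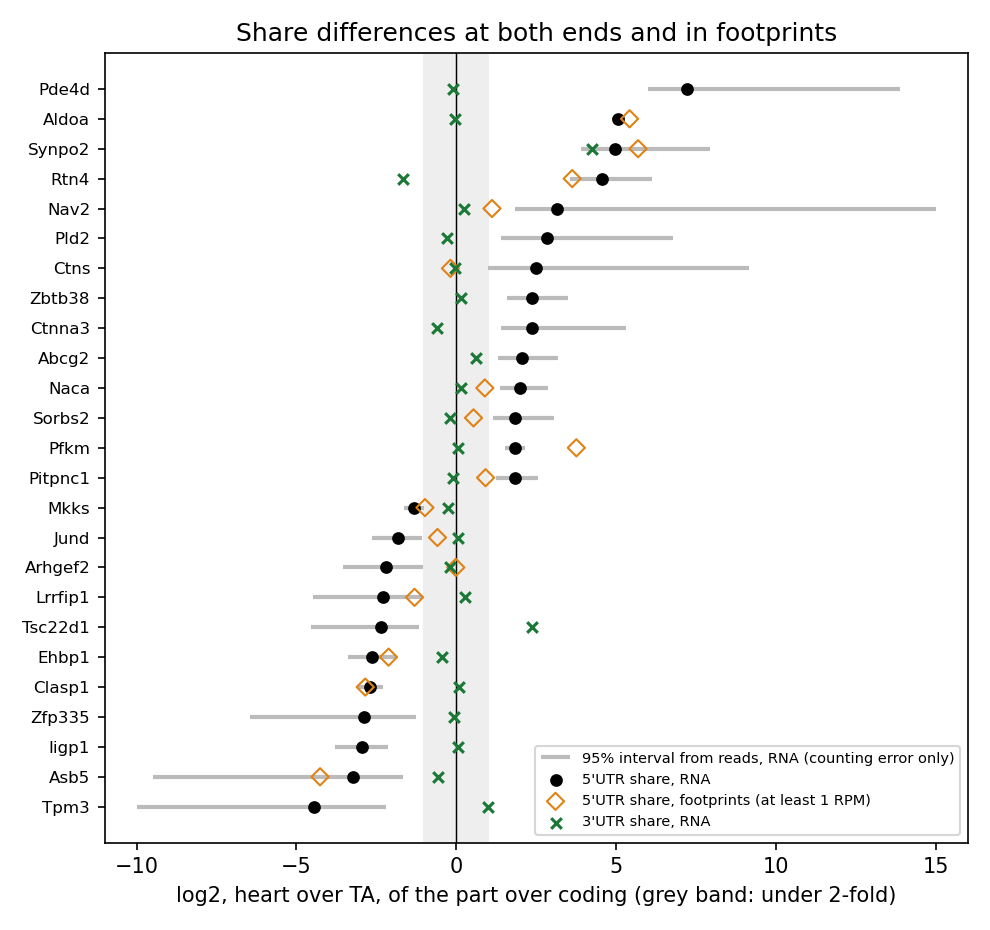
For the 25 members whose interval lies beyond 2-fold, the log2 heart over TA difference (x axis) of the RNA 5'UTR share (black, with its counting interval in grey, cut at the axis ends for genes with no read), the footprint 5'UTR share (orange diamonds) and the RNA 3'UTR share (green crosses). Most crosses lie in the grey band under 2-fold, while Synpo2, Rtn4 and Tsc22d1 lie outside it.

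Footprints gave a second measure from other libraries of the same tissues. For 2165 members with at least 1 RPM of 5'UTR footprints in a tissue, the same value had a median of 0.48. By the same 2-fold rule 29.1% were called higher and 4.85% lower in heart. Of 73 members called higher in RNA, 29 (39.7%) were called higher in footprints too and 3 (4.11%) were called lower. Of 68 called lower in RNA, 11 (16.2%) were called lower in footprints too and 10 (14.7%) were called higher. Over all called members with footprints, the sign was the same for 60 of 73 higher and 29 of 68 lower, while 1540 of the 2165 footprint values (71.1%) were above 0. Among the genes with intervals beyond 2-fold, 8 of 9 higher genes and 7 of 7 lower genes with footprints had the same sign in both measures, that of Arhgef2 being near 0 (-0.01). Across all 2165 genes the 2 measures were weakly related (Pearson r 0.192, Spearman coefficient 0.102, genes not being independent replicates), so for most members the footprint share was no repeat of the RNA share. The RPF reads were not recovered as whole numbers, so these values carry no interval.

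The annotation was then read for other first exons. In GENCODE M21, 3115 members matched a transcript by its accession, and 1060 had the listed 5'UTR length in it. For 416 (13.4%) another coding transcript of the gene shared coding sequence but had no exon over the matched transcript's 5'UTR. The listed leader itself was not compared with the exons. Such a first exon was annotated for 30 of 129 members called higher (23.3%), 27 of 118 called lower (22.9%) and 359 of 2868 in between (12.5%). Among members with at least 10 RPM of coding RNA in both tissues and 2 RPM of 5'UTR in 1, the numbers were 13 of 42 (31.0%), 13 of 35 (37.1%) and 218 of 1740 (12.5%). Of the genes with intervals beyond 2-fold, 11 of 24 matched (45.8%) had one. Overlap of the matched transcript's 5'UTR with an exon of another gene did not follow this order. It held for 13.2%, 14.4% and 14.5% of higher, lower and other members. These are counts over annotated transcripts, with no test.

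**Figure D5:**
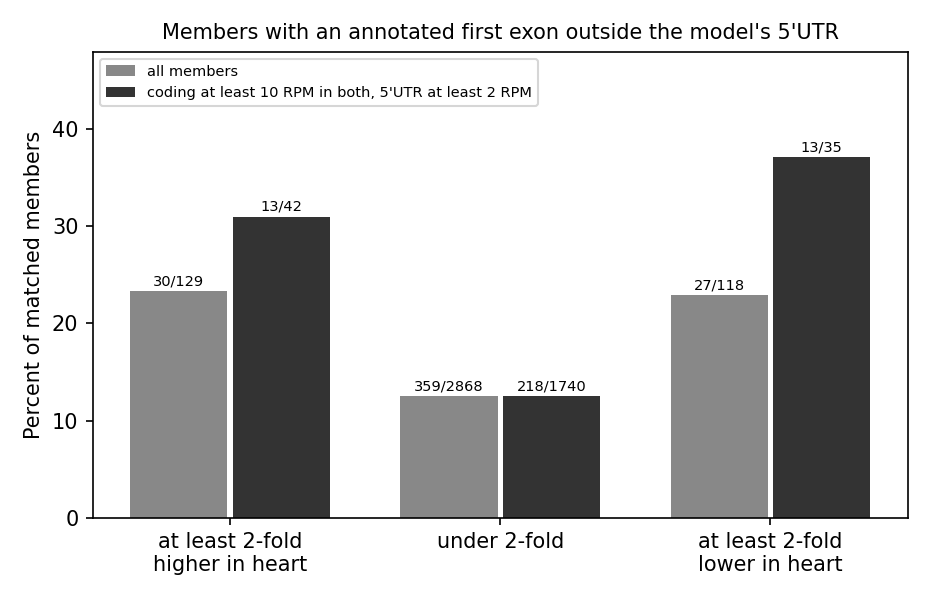
Percent of matched members (y axis) for which GENCODE has a coding transcript of the same gene with no exon over the matched transcript's 5'UTR, by class of 5'UTR share, with counts above the bars. The outer classes stand at 22.9 to 37.1% and the members under 2-fold at 12.5% at both minimums.

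Members with several RefSeq starts were 34.9% of the higher, 30.7% of the lower and 24.0% of the other members that have entries. Promoter letters differed little between the classes. TATAAA, searched on both strands in the 250 bases before the model's own start, occurred for 4.26% of the higher, 6.33% of the lower and 6.68% of the other members, and in 12.4% of all 32851 promoters of the table. CAGCTG, an E-box, which reads the same on both strands and cannot share a base with TATAAA, occurred for 12.8%, 12.7% and 11.5%, and in 13.0% of all. The median number of CpG per 300 bases was 22, 24 and 21. The median 5'UTR length was 211 nt in the higher, 255 nt in the lower and 241 nt in the other members.

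Genes known for alternative promoters or first exons formed a list of 43 members with a median of 0.00. Pde4d, Aldoa, Fhl1, Prkag2 and Asph were higher and Tpm3, Myl1 and Mef2c were lower, beside 4.1% and 3.78% over all members. Fhl1, a LIM-domain protein of the sarcomere, had a value of 1.54 (0.78 to 2.22) but a footprint value of -0.91. Prkag2, the AMP-sensing gamma subunit of AMP kinase found mainly in heart, stood at 1.44 (0.30 to 3.55) in RNA and 2.37 in footprints. Tpm1, the most abundant of the list, differed little (0.13, 0.07 to 0.18) on 4304 and 10308 leader reads, and Mb, myoglobin, stood at -0.11.

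Asph, the locus of aspartate beta-hydroxylase and of the calcium-store proteins junctin and junctate, and Trdn, triadin, were the 2 higher members of 25 for calcium handling (4.1% over all members). The Asph model with a 618 nt coding sequence had 20.0 RPM of leader in heart and 17.1 RPM in TA. Its coding RNA was 80.1 RPM in heart and 143 RPM in TA. It had a value of 1.06 (0.76 to 1.37) and a footprint value of 2.65. With the 5'UTR taken over all 3 parts the value was 0.95, under 2-fold. A second Asph model was listed in heart alone, with 1.18 RPM of leader on 148 RPM of coding RNA. Setting that model against the TA model, as a join by symbol alone would do, gave -3.79. Whether heart reads were divided between the Asph models was not tested. Trdn had 95.5 and 153 RPM of leader, a value of 1.02 (0.90 to 1.14) and a 3'UTR share of -2.07. Atp1b1, the sodium pump beta subunit, was the lower one (-1.09; 3.78% over all members).

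Of 39 sarcomere and Z-disc members, Synpo2 and Fhl1 were higher and Neb was lower, with a median of -0.04. These counts are near the 4.1% and 3.78% over all members. Tpm3 and Myl1, also called lower, stood on the alternative promoter list and not on this one. Ttn, the giant sarcomere protein titin, had 219 RPM of leader in heart and 367 RPM in TA and a value of -0.04 (-0.11 to 0.04). Its leader was covered at 1.15 and 1.18 of the coding density. The value of Neb, nebulin of the thin filament, was -1.65, and that of Myl1, the fast essential myosin light chain, was -1.67. Each rested on 1 leader read in heart, with intervals of -7.92 to -0.13 and -7.94 to -0.14, and both turned positive with 1 RPM added (0.74 and 0.69). Their footprint values had the other sign, 3.23 for Neb and 0.85 for Myl1. These came from 0.04 and 0.07 RPM of leader footprints in heart.

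The metabolic and signalling lists are given beside 4.1% higher and 3.78% lower over all members. Of 25 members for fatty acid use none was higher and 3 were lower, with a median of -0.16. Acsl1, which activates long-chain fatty acids, stood at -1.11 (-1.57 to -0.60), Decr1, a dienoyl-CoA reductase, at -1.80 (-3.08 to -0.38) and Cpt1a, the carnitine palmitoyltransferase of mitochondrial import, at -1.26 (-2.61 to 0.90). None of 12 tricarboxylic acid cycle members was called. Of 46 oxidative phosphorylation members only Cox5a was called (-1.36, -2.19 to -0.62), and of 42 ribosomal protein members only Rpl34 (-1.02, -2.73 to 0.28). The footprint value was 0.86 for Cox5a, the other sign, and -1.84 for Rpl34. For insulin, AMP kinase and growth signalling, Grb14 (1.67), Pik3ca (1.22) and Prkag2 were higher and Tbc1d1 (-1.41) was lower among 22 members. Grb14, an insulin receptor adaptor, had 1 leader read in TA and turned negative (-0.81) with 1 RPM added. Tbc1d1 had 7 leader reads in heart and 177 in TA, and stood at -0.52 with 1 RPM added. None of 22 members known for regulatory upstream reading frames was called, with values from -0.53 to 0.66.

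The tissues were as labelled by their markers. Heart markers summed to 101000 RPM of coding RNA in heart and 248 RPM in TA, and fast muscle markers to 2450 and 211000 RPM. Myh6 and Nppa were not listed in TA, nor Myh4 and Actn3 in heart. Markers of other cells also differed. Endothelial genes summed to 1530 RPM in heart and 388 RPM in TA (10 of 10 listed in both), and macrophage and leukocyte genes to 356 and 72.0 RPM. Smooth muscle and pericyte genes summed to 602 and 231 RPM, and red cell genes to 12500 and 472 RPM. Adipocyte genes summed to 384 and 124 RPM, but only 1 of 4 was listed in heart, against 4 in TA. That gene was Fabp4, with 384 RPM in heart and 98.7 RPM in TA. Fibroblast genes were near equal at 1480 and 1450 RPM, and nerve genes low at 2.15 and 17.0 RPM (2 of 4 listed in heart and 4 in TA). No marker that was a member was past 2-fold (10 endothelial, 3 macrophage, 5 fibroblast, 4 smooth muscle, 2 red cell, 1 adipocyte, 3 heart and 5 fast muscle genes). With 7.89% of all members past 2-fold and only 33 markers among them, this count says little about the markers. In bulk tissue, fewer cells of a type and less RNA per cell cannot be told apart, and the part of these cells in the shares above was not tested. RNA reads recovered from the files were 9290000 on coding sequence and 280000 on 5'UTRs in heart, and 16050000 and 441000 in TA.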

How the data were processed

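The deposited values are RPM, which the authors give per the file headers for the 5'UTR, coding part and 3'UTR, with each part's length. Nearly all genes have 1 transcript model. Per the labels, RefSeq transcripts served as the mapping target, while Ttn was listed on a composite of Ensembl exons. The submitters' processing notes list Bowtie and mm9. Version, trimming, the handling of multiply mapping reads and whether the kit kept strand were not given in the sources used here. Reads of overlapping genes can therefore not be told apart.

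Low RNA values were whole multiples of 0.107 RPM in heart and 0.0621 RPM in TA, the worth of 1 read (100% of 10102 and 11640 values within 0.005 RPM). Recovered reads gave exact conditional intervals of ratios and Wilson intervals of shares. No count test could be fitted with 1 library per group. Rows were paired where symbol and all 3 lengths agreed in both tables. The coding minimum was asked of both tissues. Members and 22 gene lists were chosen with earlier results of these data known. Named genes were the 15 highest and 15 lowest values at 10 RPM of coding and 2 RPM of 5'UTR RNA, called members and the 3 most abundant of the alternative promoter list, the highest, lowest and most abundant member of each other list, and Ttn. Not every gene that this rule picked is described above. Genes named outside this rule are those with intervals beyond 2-fold, those that make up a list's calls, and Trdn.

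Transcripts were matched by accession to GENCODE M21 (GRCm38), and 1060 members had the same 5'UTR length there. Promoters were those of RefSeq (GRCm38.p6): 2529 members had entries, and for 2330 an entry lay within 100 nt of the start that the tables' 5'UTR length implies. Clasp1 and Asph had no promoter sequence to print. Computations used Python 3.11.15, numpy 2.4.6, pandas 2.3.3, scipy 1.17.1 and matplotlib 3.10.9 and were tested on simulated data. Alternatives changed the constant added, the minimums, the length limit, the centring, the denominator, the choice of rows and the use of recovered reads.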

Additional observations from a re-analysis of the deposited data

How the results depend on the processing

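No paired analysis was possible because each group was 1 library, and for the same reason no library could be left out. Beside 129 members higher, 119 lower and a median of -0.01, adding 1 RPM gave 47, 194 and -0.16, and adding 0.01 RPM gave 203 higher. Stricter minimums (20 RPM of coding and 5 RPM of 5'UTR RNA) left 776 members with 13 higher and 11 lower, 3.09% past 2-fold against 7.89%. Among all 3144 members that share was also lower where leaders had more reads (21.3% under 25 reads, 3.17% at 300 or more). With no minimum on values, 9164 genes gave 555 higher, 1736 lower and a median of -0.18. Of the 1060 members whose matched transcript has the same 5'UTR length, 38 were higher and 47 lower, an alternative chosen after seeing the data. Pairing rows by symbol, and leaving out members whose matched 5'UTR overlaps another gene's exon, were also chosen after seeing the data. Under the other alternatives both counts stayed within 1.5 times and the median within 0.1. The use of recovered reads came near that limit, with 193 higher and 120 lower. Of 441 alternative values of the 38 named genes past 2-fold, 437 kept their direction. Adding 1 RPM reversed Grb14 (-0.81), Myl1 (0.69) and Neb (0.74), each with 1 leader read in a tissue, and brought 11 others under 2-fold, among them Nav2, Ctnna3, Sorbs2 and Asb5. Pairing by symbol alone reversed Asph (-3.79), since it compared different models. Depth limits the thinly read leaders most: 1 RPM was 9.34 reads in heart and 16.1 in TA.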
